A study of Gallus gallus with 12 samples.

Results

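In chicken cells, 71 genes were prominent in adult red blood cells while their level in embryonic red blood cells was low or not listed. Members were chosen by the measured levels themselves: they are the genes whose mean over the 3 adult replicates was at least 1 and which were either not listed for embryonic red cells or listed there with a mean under 1 that was no higher than the fibroblast mean. The rule used the adult, embryonic and fibroblast means, and it found 71 of the 804 genes listed for adult red cells and of the 13889 genes listed in any cell type. Of these 71, 47 were not listed for embryonic red cells and 24 were listed there with a mean under 1.

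Total RNA depleted of ribosomal RNA was sequenced with strand information from 4 kinds of wild-type chicken cells with 3 replicates each. Adult red cells came from the blood of hens aged 28 to 38 weeks, and embryonic red cells from embryos at embryonic day 10. HD3 erythroblasts are an established chicken line of dividing red cell precursors, and the 3 HD3 libraries all come from that 1 line. Primary fibroblasts, connective tissue cells grown in culture, lie outside the red cell lineage. The labels do not say whether replicates came from separate animals or cultures, so p-values measure the spread between these samples, which may be technical.

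Birds, unlike mammals, keep the nucleus in their mature red blood cells. As these cells mature, their chromatin condenses, transcription falls and the RNA that remains comes to be dominated by a small set of transcripts, among them those for globins. The series concerns paused RNA polymerase II and chromatin organization in such cells. The members are described here by total RNA, which does not separate newly made transcripts from kept ones.

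Levels are given as FPKM, reads per length of gene and per depth of library, which the authors had brought to cell number, and are called scaled FPKM here. No table listed a gene with a mean under 0.3, and a gene not listed has no value and is not a measured 0. In bulk samples on this scale, fewer transcribing cells and less RNA per cell cannot be told apart. The files do not pair the Ensembl gene IDs with names, so only 4 members are given by ID, and the others by their rank among the 71 in adult mean. Identity of the cells was for the same reason not checked against marker genes.

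The adult libraries held 5363962, 9541990 and 2916251 reads on listed genes in replicates 1 to 3, recovered from the values, and a member had at least 161, 157 and 37 reads in them. The median member had 6168, 9350 and 3642 reads, so counting error was small beside the spread between replicates for most members. Adult replicate 3 stood apart. Over the 804 adult genes, the Pearson correlation of log2(scaled FPKM + 1) was 0.823 and 0.727 between replicate 3 and replicates 1 and 2, against 0.937 between replicates 1 and 2. Genes are not independent replicates, and these values describe the libraries only.

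On the authors' scale, the name "prominent only in adult red cells" held at most against embryonic red cells. Of the 71 members, 66 were listed in HD3 erythroblasts and 67 in fibroblasts. The highest mean of the 4 cell types lay in fibroblasts for 62 members, in HD3 erythroblasts for 6 and in adult red cells for 3, with a gene not listed counted as 0. Only 2 members were listed in the adult table alone. The order of the cell types rests on the authors' cell-number scaling. With every sample brought to an equal sum over the genes tested, 51 of 67 members were higher in adult red cells than in fibroblasts by limma. In the same fit 2 members were lower, and the adult side of this comparison chose the members. The members are called here genes with an adult mean of at least 1 and an embryonic mean that is under 1 or not listed. Among the 24 listed for embryonic red cells, the embryonic mean was up to 0.865 of the adult mean.

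**Figure D1:**
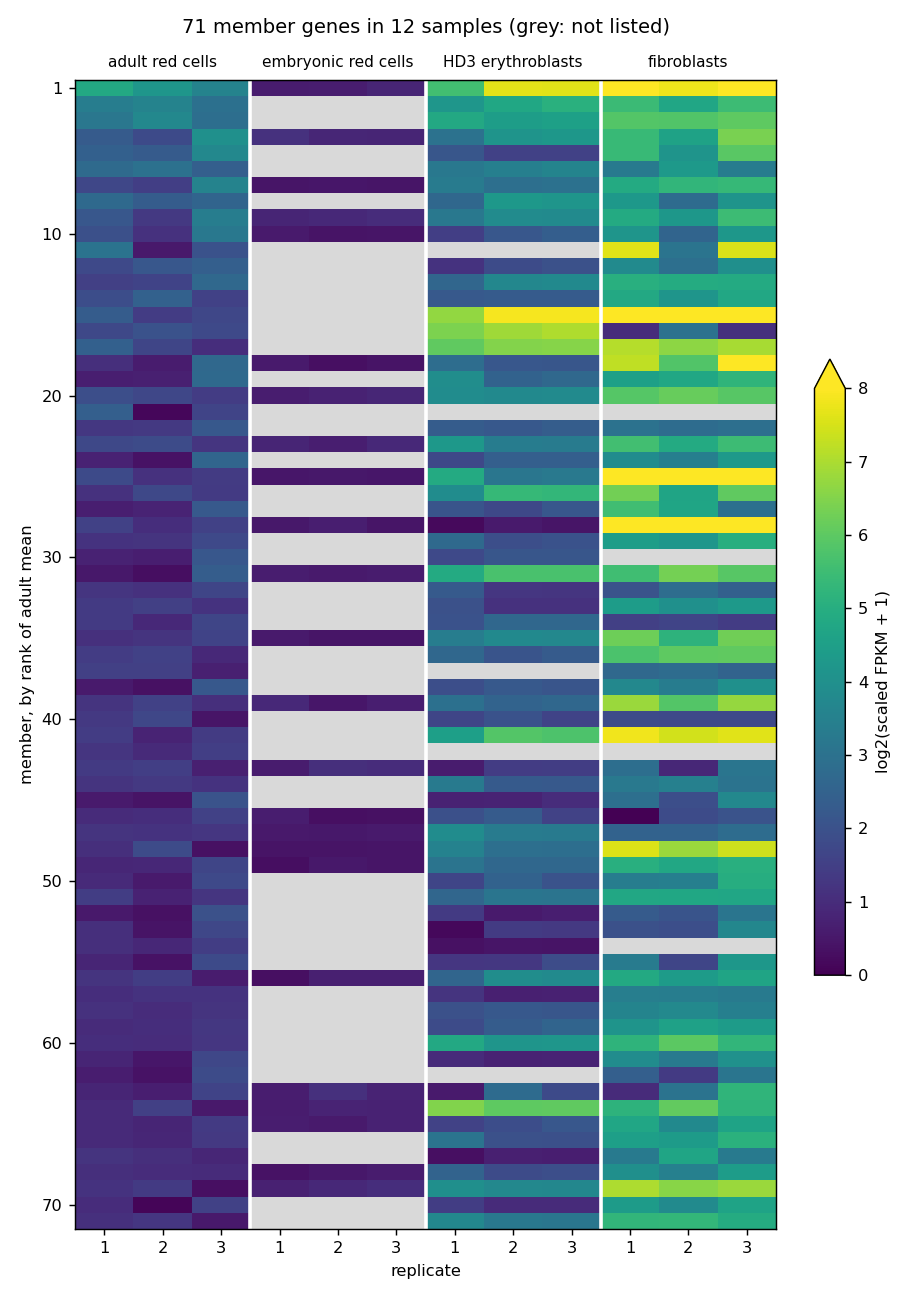
Scaled FPKM of the 71 members as log2(scaled FPKM + 1), 1 row per member in order of adult mean and 1 column per replicate of the 4 cell types; grey marks a gene not listed, and values above 8 share 1 colour. Embryonic columns are grey for 47 members, while 66 rows are filled in HD3 erythroblasts and 67 in fibroblasts, mostly at higher levels than in adult cells on the authors' scale.

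Adult levels of the members were modest. The adult mean ran from 1.005 to 18.6 scaled FPKM with a median of 1.5. Only 1 member had an adult mean of 10 or more, 5 lay between 5 and 10, 18 between 2 and 5, and 47 between 1 and 2. None was among the 10 genes with the highest adult mean. All 3 adult replicates reached 1 in 31 members, 2 of them in 23 members, and a single replicate did so in 17 members.

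The highest adult level was that of ENSGALG00000011715, with a recovered length of 2324 bp. It had 27.2, 17.5 and 11.0 scaled FPKM in adult replicates 1 to 3, against 0.528, 0.543 and 0.759 in embryonic red cells. In HD3 erythroblasts it had 46.7, 203 and 197, and in fibroblasts 274, 219 and 259. Every adult value lay above every embryonic value and below every value of HD3 erythroblasts and fibroblasts. The adult mean of 18.6 ± 8.16 (SD, n = 3) was 30.4-fold the embryonic mean of 0.610 ± 0.129 (SD, n = 3), and ENSGALG00000011715 stood at place 19 of the adult and place 594 of the embryonic table. These values chose the gene, so they are a description.

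The next highest adult level was that of ENSGALG00000002160, of 1729 bp, which was not listed for embryonic red cells. It had 9.43, 10.9 and 6.69 scaled FPKM in adult replicates 1 to 3. In HD3 erythroblasts it had 17.4, 26 and 32.7, and in fibroblasts 42.5, 25.9 and 44.1. Its adult replicates lay close together and below all replicates of both other cell types. Of the next members, the one of rank 3 (1581 bp) had 8.06, 12.2 and 6.42 in adult cells, a similar order of replicates to ENSGALG00000002160, and was not listed for embryonic red cells either.

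The member of rank 5 was the longest, at 23664 bp, and is also not listed for embryonic red cells. Its scaled FPKM was 4.51, 3.91 and 12.3 in adult replicates 1 to 3, against 3.44, 1.91 and 1.91 in HD3 erythroblasts and 40.8, 16.6 and 61.2 in fibroblasts. All adult values thus lay above those of HD3 erythroblasts and below those of fibroblasts. FPKM divides by length, and by reads this gene stood far higher. It took 4.95%, 4.0% and 11.5% of the reads on listed genes in adult replicates 1 to 3, place 2 among the 804 genes. It took 0.0475%, 0.0263% and 0.0264% of those reads in HD3 erythroblasts, which list 10303 genes, and 0.0988%, 0.0404% and 0.148% in fibroblasts, which list 13451. A shorter list raises each share, so the shares are not compared between cell types.

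As a group the members held 8.05%, 4.20% and 7.53% of the summed scaled FPKM in adult replicates 1 to 3, a mean of 6.60% ± 2.09 (SD, n = 3). By reads they held 19.5%, 15.9% and 22.6% of the adult total, and 2 of them were among the 10 adult genes with most reads. Shares within a table do not depend on the cell-number factor, but they do depend on how many genes the table lists. The 24 members listed for embryonic red cells held 0.0704%, 0.0980% and 0.104% of the embryonic sum over 1354 genes, which is not compared with the adult share over 804 genes.

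The adult replicates of a member often lay apart. In 27 of the 71 (38.0%) the highest adult replicate was at most 2 times the lowest, against 37.9% of the other 95 genes with an adult mean of at least 1 and 42.3% of all 804 adult genes. Replicate 3 was the highest in 39 members (54.9%), against 38 of those 95 genes and 35.4% of the 804 genes, and in 22 members (31.0%) it exceeded each of the others more than 2 times, against 14.6% of the 804. The opposite pattern, replicates 1 and 2 each more than 2 times replicate 3, was seen in 9 members (12.7%) and in 22.6% of the 804. The adult mean that chose the members includes replicate 3, so a gene high there alone could enter by it. The part that the standing of this library has in these counts was not tested, and with replicates 1 and 2 alone the same rule found 63 genes, 51 of them among the 71.

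**Figure D2:**
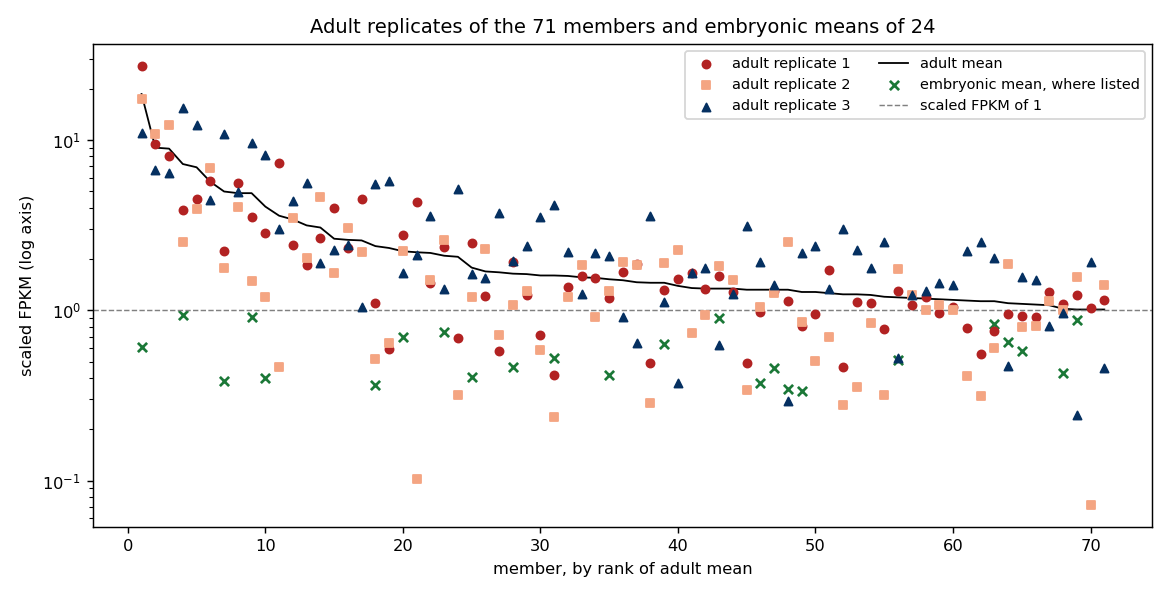
Scaled FPKM on a log axis of each adult replicate of the 71 members in order of adult mean (black line), with the embryonic mean of the 24 members listed there (crosses) and a dashed line at 1. Replicate 3 is the highest in 39 members, and every cross lies below 1.

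Replicate 3 stood out most among short genes. Recovered lengths of the members ran from 66 to 23664 bp with a median of 1587 bp, against 894 bp for the other 95 genes with an adult mean of at least 1 and 2193 bp for all 13889 genes. A length of 150 bp or less was found in 11 members (15.5%), against 16.8% of the other 95 genes, 7.84% of the adult table and 5.29% of all genes. In 10 of these 11 replicate 3 was the highest, and its median ratio to the mean of replicates 1 and 2 was 3.81, against 1.1 over the 60 longer members. Over the whole adult table the same ratio had a median of 2.37 for the 63 genes of 150 bp or less and of 0.796 for the 741 longer ones. These counts include the members. Among the other 95 genes the median was 2.55 for the 16 of 150 bp or less and 0.812 for the 79 longer ones. The excess of replicate 3 among short genes was therefore seen beyond the members too. The adult mean by which those 95 genes were taken also includes replicate 3.

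Of the 11 short members, 7 were 130 to 140 bp long, a length class chosen after the values were seen. They were 9.86% of the members, against 5 of the other 95 genes with an adult mean of at least 1 (5.26%). The class made up 2.86% of the adult table and 0.374% of all genes. The highest of the 7 members, of rank 4 and 136 bp, had 3.89, 2.5 and 15.3 scaled FPKM in adult replicates 1 to 3. In embryonic red cells it had 1.20, 0.810 and 0.794. It had 7.10, 16.7 and 17.9 in HD3 erythroblasts and 41.3, 23.6 and 82.3 in fibroblasts. Replicate 3 was the highest in adult cells in 7 of 7, and replicate 3 was likewise the highest in fibroblasts in 7 of 7, where it was the highest for 24.2% of all fibroblast genes. At this length some of the fibroblast values rest on few reads. A narrow lead of fibroblast replicate 3 can therefore lie within counting error. Among the 23 adult-table genes of this length, adult replicate 3 was the highest for 21 and fibroblast replicate 3 for 22. Whether these genes are copies of 1 sequence that share reads was not analysed here, so their single values are uncertain.

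The 86 bp member of rank 40 ran the other way, with 1.53, 2.25 and 0.374 scaled FPKM in adult replicates 1 to 3, against 2.20, 3.03 and 2.06 in HD3 erythroblasts and 2.56, 2.42 and 2.40 in fibroblasts. It was the exception among the 11 short members. Its adult replicate 3 rested on 37 reads, the fewest of any member in an adult library. At this length its HD3 and fibroblast values rest on few reads as well, the fibroblast values on the fewest. Their evenness therefore carries no weight.

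**Figure D3:**
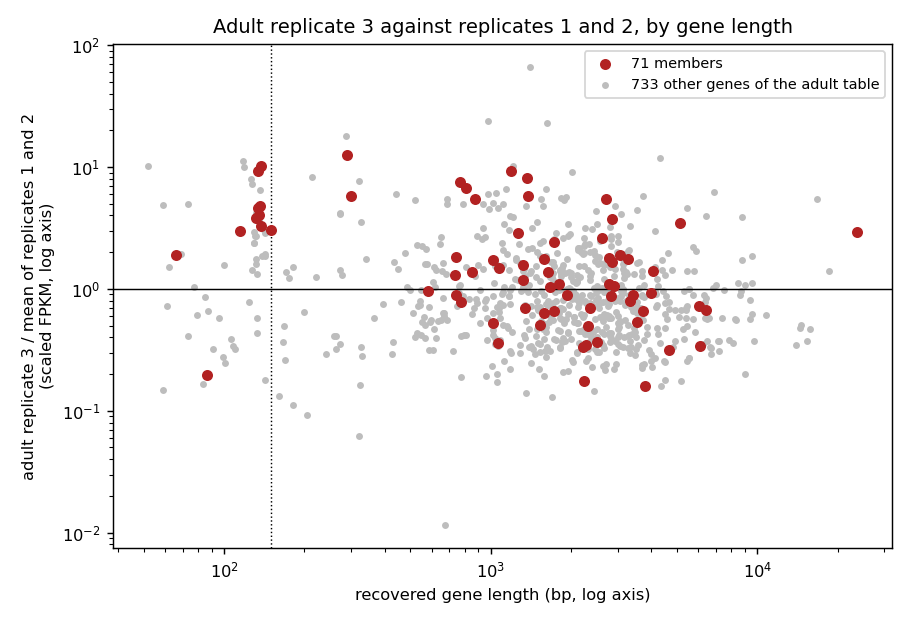
Ratio of adult replicate 3 to the mean of adult replicates 1 and 2, in scaled FPKM, against recovered gene length, both on log axes, for the 71 members (red) and the 733 other genes of the adult table (grey), with a dotted line at 150 bp. Of the 11 members at or left of the dotted line 10 lie above 1, and longer members scatter on both sides of 1.

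Against embryonic red cells, the 24 members listed in both tables had an embryonic mean between 0.335 and 0.935. Their embryonic mean was a median of 0.298 of the adult mean, and the adult mean was at least 2 times the embryonic one in 19 and at least 10 times in 3. In 17 of the 24 every adult replicate lay above every embryonic one and in 0 below, against 7.90% above and 42.6% below of the 481 genes listed in both tables. Of 13 members with a mean of at least 1 over both cell types, 5 were called higher and 0 lower in adult cells by limma, with a Benjamini-Hochberg adjusted p under 0.05 and a change of at least 1 on the log2 scale in either direction. Of the 195 genes tested, 5.13% were called higher and 48.7% lower, 53.8% in all. The rule chose members on this contrast, so nothing is read from these counts.

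A member called higher and among the short ones, of rank 10 and 135 bp, had 2.84, 1.20 and 8.13 scaled FPKM in adult and 0.483, 0.338 and 0.374 in embryonic red cells, with no overlap. Rank 7, a gene of 873 bp, had 2.24, 1.77 and 10.9 in adult and 0.374, 0.411 and 0.370 in embryonic red cells. In both, adult replicate 3 was several times higher than the other adult replicates, which still lay above the embryonic values. The number of members called was 8 without adult replicate 2 and 3 without embryonic replicate 3.

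The rule's thresholds cut through a continuous range. Just inside the adult limit lay genes with an adult mean of 1.005, 1.007 and 1.012, and just outside, among genes that met the embryonic condition, ones at 0.9757, 0.9678 and 0.9548. Members from 1 to 1.1 numbered 8, and genes from 0.9 to 1 numbered 10. On the embryonic side the members nearest the limit had an embryonic mean of 0.935, 0.914 and 0.898, and the nearest genes left out had 1.01, 1.03 and 1.05. Of the 95 genes with an adult mean of at least 1 that are not members, 92 had an embryonic mean of at least 1 and 3 had one under 1 but above the fibroblast mean.

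The comparison of HD3 erythroblasts with fibroblasts did not enter the choice of members through its HD3 values. The fibroblast mean entered for the 24 members listed in embryonic cells, where it had to be no lower than the embryonic mean. On the authors' scale 45 of 64 members tested (70.3%) were lower in HD3 erythroblasts than in fibroblasts and 1 was higher, by limma with a Benjamini-Hochberg adjusted p under 0.05 and a log2 change of at least 1 in either direction. With no minimum on the change 47 were lower and 3 higher. Of all 9442 genes tested, 78.5% were lower and 1.55% higher, 80.0% in all, against 71.9% of the members. The median HD3 level was 0.229 of the fibroblast level over the members and 0.228 over all genes tested. Among the 40 tested members not listed in embryonic cells, where the fibroblast mean was not used, 28 were lower and 1 higher (70.0% lower), against 17 lower and 0 higher of the 24 others.

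Another scaling changed these directions. When every sample had an equal sum over the genes tested, 13 members were higher and 12 lower in HD3 erythroblasts, and when every sample was centred on its median gene 13 were higher and 11 lower. All genes tested moved alike, from a median log2 fold change of -1.73 on the authors' scale to -0.12 with equal sums and 0.14 with median centring.

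The largest falls were those of ENSGALG00000026383 (733 bp, rank 28) and ENSGALG00000009621 (1928 bp, rank 25), at places 10 and 11 among fibroblast genes. Both were picked by their fold change in this same comparison. Both are listed in embryonic red cells, so the rule also used their fibroblast means. ENSGALG00000026383 had 0.155, 0.490 and 0.374 scaled FPKM in HD3 erythroblasts, against 2307, 4853 and 2182 in fibroblasts. In adult red cells it had 1.92, 1.07 and 1.94, against 0.440, 0.593 and 0.364 in embryonic red cells. The log2 fold change of HD3 erythroblasts over fibroblasts was -11.09 (SE 0.342, limma adjusted p = 2.15e-06). All 3 adult values of ENSGALG00000026383 exceeded all 3 of HD3 erythroblasts and of embryonic cells, although the adult mean was far below the fibroblast mean.

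ENSGALG00000009621 had 28.6, 7.74 and 8.33 scaled FPKM in HD3 erythroblasts, against 2324, 2445 and 3334 in fibroblasts. Its adult values were 2.49, 1.20 and 1.64, against 0.386, 0.436 and 0.397 in embryonic red cells. For HD3 erythroblasts over fibroblasts the log2 fold change was -7.63 (SE 0.50, limma adjusted p = 9.88e-06). With equal sums and with median centring both stayed lower and past the threshold, at -9.99 and -9.22 for ENSGALG00000026383 and at -5.70 and -5.77 for ENSGALG00000009621.

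The 1 member higher in HD3 erythroblasts, of rank 16 and 743 bp, was singled out after its values were seen. It had 85.6, 116 and 130 scaled FPKM in HD3 erythroblasts, against 1.04, 7.06 and 1.18 in fibroblasts, a log2 fold change of 5.06 (SE 0.517, limma adjusted p = 5.58e-05). In adult red cells it had 2.31, 3.05 and 2.40, within the fibroblast range, and it was not listed for embryonic red cells. Every HD3 value thus lay far above every adult and fibroblast value.

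Neither of the members with the highest adult levels passed the threshold. ENSGALG00000011715 had a difference of -1.01 on the log2 scale in HD3 erythroblasts over fibroblasts (SE 0.566, limma adjusted p = 0.124), and HD3 replicate 1, at 46.7, lay well below the other two. Its log2 fold change was -0.32 without that library. ENSGALG00000002160 had -0.55 (SE 0.307, limma adjusted p = 0.123). Both turned positive under the other scalings, ENSGALG00000011715 to 0.98 with equal sums and 0.86 with median centring, and ENSGALG00000002160 to 1.39 and 1.31. For ENSGALG00000002160 these passed the threshold, at a limma adjusted p of 0.013 and 0.0173.

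Replicates of HD3 erythroblasts and fibroblasts separated without overlap in most genes, members included. Every HD3 value was below every fibroblast value in 48 of 64 members, against 84.8% of the 9899 genes listed in both tables, and above it in 3, against 2.66%. Those 3 had ranks 16, 34 and 47. The member of rank 34, of 3288 bp, had 3.01, 5.33 and 5.40 scaled FPKM in HD3 erythroblasts and 1.88, 2.14 and 1.66 in fibroblasts. That of rank 47, of 2789 bp, had 13.8, 9.01 and 8.73 in HD3 erythroblasts and 4.74, 4.75 and 6.03 in fibroblasts. Neither reached a log2 fold change of 1 on the log2(scaled FPKM + 1) scale.

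**Figure D4:**
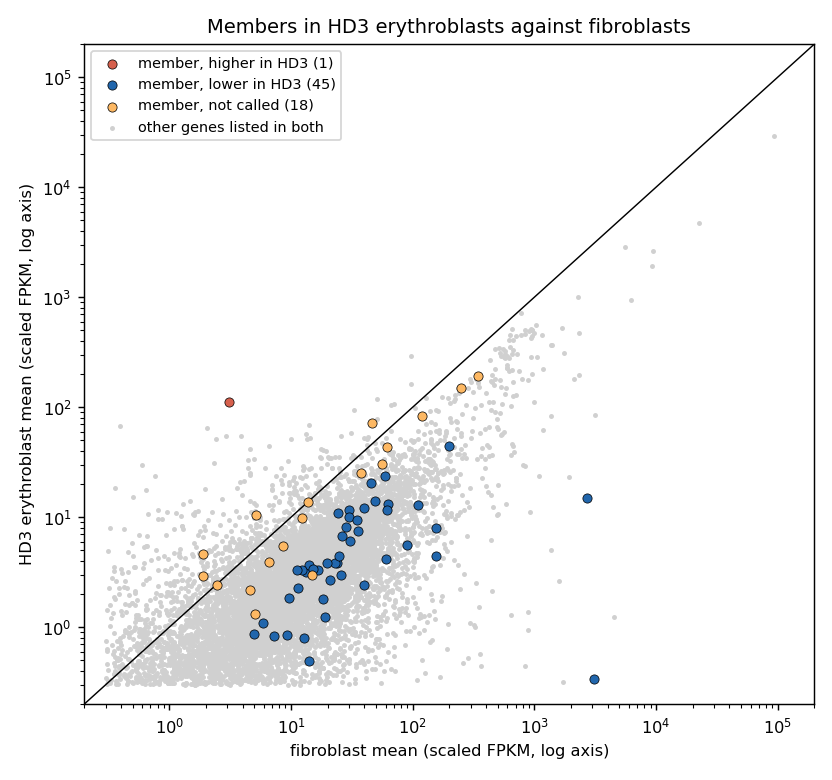
Mean scaled FPKM in HD3 erythroblasts against fibroblasts on log axes, with members coloured by the limma call, other genes listed in both tables in grey, and the line of equal levels. Of 64 members 45 are called lower and 1 higher in HD3 erythroblasts, and most points, members included, lie on the fibroblast side of the line.

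Adult red cells were then set beside HD3 erythroblasts and fibroblasts, 2 comparisons that share the adult samples and whose adult side chose the members. Between adult red cells and HD3 erythroblasts, 62 members were tested, and 1 was higher and 34 (54.8%) lower in adult cells, against 0.297% higher and 87.7% lower (88.0% in all) of the 673 genes tested. Between adult red cells and fibroblasts, 67 members were tested, and 0 were higher and 60 (89.6%) lower in adult cells, against 0.265% higher and 96.2% lower (96.4% in all) of the 756 genes tested. The HD3 level was a median of 2.64 times the adult level over the 66 members listed there, and the fibroblast level a median of 12.3 times over 67 members. Over the 91 other adult genes listed in each of these tables the medians were 11.6 and 39.5. All adult replicates lay below all HD3 replicates in 35 of 66 members, against 86.3% of genes, and below all fibroblast replicates in 58 of 67, against 94.9%. They lay above all fibroblast replicates in 0 of 67, against 0.521%. An adult mean of at least 1 was required of the members and of the other adult genes alike. The members also had to meet the embryonic condition, so these differences are a description.

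On this comparison the scaling decided the direction. With equal sums 51 members were higher and 2 lower in adult cells than in HD3 erythroblasts, and 51 higher and 2 lower than in fibroblasts. With median centring the numbers were 38 higher and 6 lower against HD3 erythroblasts and 36 higher and 6 lower against fibroblasts. The median log2 fold change of all genes tested moved with it, from -2.42 to 0.63 with equal sums and 0.21 with median centring against HD3 erythroblasts, and from -4.14 to 0.75 and 0.16 against fibroblasts. An adult mean of at least 1, which 166 of the 804 adult genes reached, was required of the members. Their high adult level was set by that rule, and nothing is read from their directions under these scalings.

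**Figure D5:**
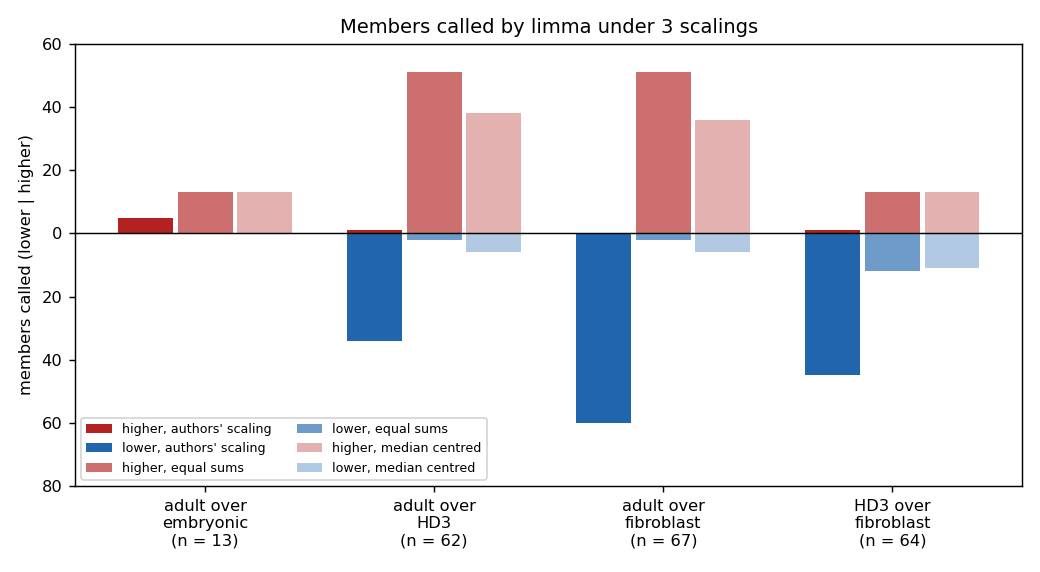
Numbers of members called higher (up, red) and lower (down, blue) by limma in 4 comparisons under the authors' scaling, equal sums and median centring, with the number of members tested under each label. Adult red cells over HD3 erythroblasts give 1 higher and 34 lower members on the authors' scale and 51 higher and 2 lower with equal sums.

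Places within a table need no factor between cell types. Among the 749 genes listed in adult red cells, HD3 erythroblasts and fibroblasts, the 64 members had a median place of 96.5 by adult level, against 467 in HD3 erythroblasts and 430.5 in fibroblasts. In the top 10% of these genes stood 22 members by adult level, against 2 in HD3 erythroblasts and 2 in fibroblasts. The adult mean chose the members, so their high adult places were set by the rule and support nothing. The rule used no HD3 values, and fibroblast means only for members listed in embryonic cells. Choosing on the adult level still favours a gap to the other places, so nothing is read from it.

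In 4 of 66 members (6.06%) every adult value lay above every HD3 value, against 1.32% of the 760 genes listed in both tables. The rule required high adult values of the members, so nothing is read from this difference. The 4 members were ENSGALG00000026383, the long member of rank 5, and those of ranks 54 and 67. That of rank 54, of 2780 bp, had 1.11, 0.837 and 1.76 scaled FPKM in adult red cells, against 0.279, 0.362 and 0.353 in HD3 erythroblasts, and was not listed in fibroblasts or embryonic red cells. That of rank 67, of 6445 bp, had 1.28, 1.13 and 0.807 in adult red cells, against 0.264, 0.636 and 0.591 in HD3 erythroblasts and 8.71, 25.0 and 8.53 in fibroblasts. The single member called higher in adult cells than in HD3 erythroblasts was that of rank 5. Without adult replicate 3, or without HD3 replicate 2 or 3, 0 members were called higher.

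In HD3 erythroblasts 5 members were not listed. Of these, the member of rank 11, of 775 bp, was uneven in both cell types that list it, with 7.29, 0.466 and 3.01 scaled FPKM in adult red cells and 198, 7.36 and 187 in fibroblasts. In both, replicate 2 was the lowest by far. The 2 members listed in adult red cells alone had ranks 21 and 42. That of rank 21, of 584 bp, had 4.34, 0.102 and 2.12, and that of rank 42, of 1323 bp, had 1.33, 0.939 and 1.77 scaled FPKM. The first of these rested on adult replicates 1 and 3, and the other was even across the 3 replicates.

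By Euclidean distance over the 12 samples on the log2(scaled FPKM + 1) scale, with genes not listed as 0, the members nearest to ENSGALG00000011715 had ranks 15, 17 and 41. Their distances were 4.59, 5.11 and 6.13, against a median of 12.06 over the other 70 members. The member of rank 15, of 3331 bp, had 3.98, 1.66 and 2.25 scaled FPKM in adult red cells, against 103, 236 and 237 in HD3 erythroblasts and 363, 307 and 356 in fibroblasts. That of rank 17, of 4681 bp, had 4.48, 2.19 and 1.05 in adult red cells, against 65.2, 90.8 and 92.4 in HD3 erythroblasts and 138, 97.8 and 122 in fibroblasts. Both shared with ENSGALG00000011715 high levels in the cultured cells and the highest adult value in replicate 1, but neither was listed for embryonic red cells.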

How the data were processed

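Per the labels' protocols, TRIzol RNA (1 µg) went into stranded total RNA libraries after ribosomal RNA removal. The submitters' processing notes name STAR 2.7.2b, featureCounts and the build GRCg6a. The authors deposited 4 tables of FPKM which, per the tables' names, were scaled to cell number. The factor is not given in the sources used here. Columns were matched by sample description, with 0 left unmatched. The RefSeq gene table (25635 genes) carries 0 Ensembl IDs.

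Members and lists were chosen with earlier results of these data known. Gene lengths and whole reads were recovered as the smallest whole numbers that fit every sample's values (13889 genes, within 0.01 of a whole read), so they are lower estimates, and were tested on simulated data. Library totals were whole for fibroblasts, so their factor was taken as 1. For the others the lower limit of the factor, taken per library, was 0.00216 to 0.00253 (adult), 0.0103 to 0.0111 (embryonic) and 0.171 (HD3).

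Limma 3.58.1 (R 4.3.3, with trend) was fitted to log2(scaled FPKM + 1) of the 6 samples of a pair, over all genes in both tables that averaged 1 or more. Fold changes on this scale understate low genes. Samples were compared across separately deposited tables. IDs printed are the 2 members with the highest adult mean and all replicates at 1 or more, and the 2 with the strongest fall in HD3 over fibroblasts. The labels state no pairing of replicate numbers. Same-numbered adult and fibroblast samples deviated together (r of 0.153, 0.215 and 0.333), while in each other comparison at least 1 pair did not. No replicates agreed within read-counting noise (chi-square per degree of freedom of at least 8.64).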

Additional observations from a re-analysis of the deposited data

How the results depend on the processing

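All alternatives were planned. The number of members called between HD3 erythroblasts and fibroblasts was 46, and 25 with equal sums (13 higher, 12 lower) and 24 with median centring (13 and 11). With a pseudocount of 0.1, 2 members were higher, and with no fold change minimum 3. Between adult red cells and HD3 erythroblasts equal sums called 53 members (51 higher, 2 lower) in place of 35, and median centring gave 38 higher and 6 lower. Between adult red cells and fibroblasts equal sums gave 51 higher and 2 lower and median centring 36 and 6, in place of 0 and 60. Between adult and embryonic red cells 5 members were called, 13 with equal sums, 13 with median centring, 10 with a pseudocount of 0.1 and 10 with no fold change minimum. In the fit with the replicate number as a block, 46, 36, 61 and 6 members were called in these comparisons, against 46, 35, 60 and 5. No count moved further in that fit. Between adult red cells and HD3 erythroblasts 41 members were called with a pseudocount of 0.1 and 42 with no fold change minimum.

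Leaving out 1 replicate gave 43 to 47 members called between HD3 erythroblasts and fibroblasts (1 to 2 higher, 41 to 46 lower, with 2 higher without HD3 replicate 1). It gave 30 to 41 between adult red cells and HD3 erythroblasts (0 to 1 higher, 29 to 41 lower), 53 to 60 between adult red cells and fibroblasts, all lower, and 3 to 8 between adult and embryonic red cells, all higher. The rule found 63 to 78 members with 1 adult replicate left out, 24 at an adult mean of at least 2, 31 with every adult replicate at 1 or more and 47 with unlisted embryonic genes only. The members' share of the adult sum was 6.60%, 5.87% to 7.79% with 1 replicate left out, 8.76% without the highest adult gene and 19.4% by reads. Under equal sums and median centring the log2 fold changes in HD3 erythroblasts over fibroblasts turned to 0.98 and 0.86 for ENSGALG00000011715 and to 1.39 and 1.31 for ENSGALG00000002160. Causes were not tested. The thinnest adult value of a member rested on 37 reads, in adult replicate 3. Some values of short members in the other cell types rest on fewer, and the 66 bp member of rank 46 had 0 in fibroblast replicate 1. Such members are included in the limma counts. Genes below the listing cutoff could not be followed.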
